A study of Mus musculus with 7 samples.

Results

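The Wnt ligands, their Frizzled receptors (Fzd), the R-spondins (Rspo) and the secreted inhibitors of the Sfrp and Dkk families were compared between kidneys of LBR-null mice and of a WT littermate. The members were all gene symbols in the deposited tables that begin with Wnt, Fzd, Sfrp, Dkk or Rspo followed by a digit, which gave 41 of 24328 gene rows. They comprise 19 Wnt ligands, 10 Frizzled receptors, 4 Sfrp genes, 4 Dkk genes and 4 R-spondins, taken by name alone, with no threshold on a measured value. LBR, the lamin B receptor, binds lamin B and also has the activity of a sterol reductase, an enzyme of cholesterol synthesis. The study asked how gene expression responds when nuclear architecture is disturbed. The LBR-null mice 4001, 4002 and 4007 were homozygous for Lbr ic-J, an allele with loss of function (Lbric-J/ic-J), and mouse 4009 was Lbr+/+ (WT). All 4 mice were untreated C57BL/6J animals of 4 weeks, kept on the same standard chow. The allele is present in every tissue and cell type of these mice, and the WT group rests on 1 mouse.

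Wnt proteins are secreted, lipid-bearing ligands that bind Frizzled receptors at the cell surface. With the co-receptors Lrp5 and Lrp6 they stop the destruction of β-catenin, which then enters the nucleus and activates target genes, and with other co-receptors they act on cell polarity and movement. R-spondins raise the number of Frizzled receptors by removing the ubiquitin ligases Znrf3 and Rnf43, Sfrp proteins bind the ligands, and Dkk proteins block Lrp5 and Lrp6. In the developing kidney, Wnt9b from the ureteric stalk and Wnt4 in the mesenchyme drive the formation of nephrons, Wnt11 marks the ureteric tips, and Wnt7b shapes the medulla.

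Polyadenylated RNA was sequenced in 7 libraries, 2 each from mice 4001, 4007 and 4009 and 1 from mouse 4002, with 20694016 to 26333284 reads on genes per library. The values are normalized counts, that is reads divided by the size factor of the library, and 1 read was worth 0.787 to 1.15 normalized counts. Lbr itself was at 322, 340 and 471 normalized counts in the LBR-null mice and at 398 in the WT mouse, so its transcript level does not separate the labels. Sex is not among the labels. Normalized counts of Xist, which is made from the inactive X, were 5785, 65.3 and 9940 in mice 4001, 4002 and 4007 and 35.5 in WT. Those of the Y-linked gene Ddx3y were 141, 1516, 44.3 and 1284, so mice 4001 and 4007 hold reads of both markers, and genotype and these markers cannot be told apart for them. Whether the libraries of these mice hold RNA of 1 animal each was not tested. Library 4002-1 stood apart from the other LBR-null libraries for some ligands. Values of mouse 4002 alone are therefore given below.

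Each mouse entered the comparison as 1 replicate, with the mean of its libraries. Of the 41 members, 36 had a mean of at least 5 normalized counts over the 4 mice and were tested, namely 17 Wnt, 10 Fzd, 4 Sfrp, 3 Dkk and 2 Rspo genes. Wnt7a, Wnt8a, Dkk1, Rspo2 and Rspo4 did not reach that level. Their libraries held between 0 and 7.29 normalized counts, the highest being Dkk1 in library 4007-2, and each had at most 16 reads over the LBR-null libraries and 6 over the WT libraries. Wnt3a, Wnt1 and Dkk4 were under 5 in the WT mouse and passed the limit only through the LBR-null mice, so a difference in them is partly set by the limit. They are among the higher members counted below, and those counts and shares are a description.

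No member was called by limma (Benjamini-Hochberg adjusted p at most 0.05 and at least 2-fold), against 0% of the 17283 genes tested, and the lowest adjusted p was 0.0897 for Sfrp1. At an unadjusted limma p under 0.05, 6 members were higher in LBR-null kidneys (16.7% of the tested members, against 10.7% of all genes tested) and 5 were lower (13.9%, against 8.05%). The 6 higher members were Wnt3a, Wnt3, Wnt1, Wnt6, Wnt8b and Dkk4, and the 5 lower ones were Sfrp4, Wnt9b, Sfrp1, Rspo3 and Fzd1. The log2 fold changes were at least 2-fold upward in 6 members, against 12.8% of all genes, and at least 2-fold downward in 8, against 7.54%. DESeq2 on the reads recovered from the values called 5 members (13.9%, against 6.46% of all genes), with Wnt3 higher and Wnt9b, Sfrp4, Fzd1 and Sfrp1 lower. The quasi-likelihood test of edgeR called 0 members, against 0.162% of all genes.

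Every LBR-null library lay above both WT libraries for 8 members (22.2%, against 25.5% of all genes tested), which is close to the background. Every LBR-null library lay below both for 14 members (38.9%, against 25.7%), and the groups overlapped for 14. The median log2 fold change of the tested members was -0.46, against 0.01 over all genes tested, and it was -0.49, -0.13 and -0.34 in mice 4001, 4002 and 4007 (SD 0.18). Without WT library 4009-1 it was -0.22. Direction differed by level, among the members and among all genes. Of the 15 members with a mean under 50 normalized counts, 5 were higher at an unadjusted limma p under 0.05 (33.3%, against 24.3% of all genes of that range, with Wnt3a, Wnt1 and Dkk4 among the 5) and 1 was lower (against 5.85%). Of the 21 members at 50 or more, 1 was higher (against 6.32%) and 4 were lower (19.0%, against 8.76%). The medians of the log2 fold change were 0.03 and -0.54 in these ranges, against 0.53 and -0.05 over all genes. In bulk kidney RNA, fewer cells of a type and less RNA per cell cannot be told apart.

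**Figure D1:**
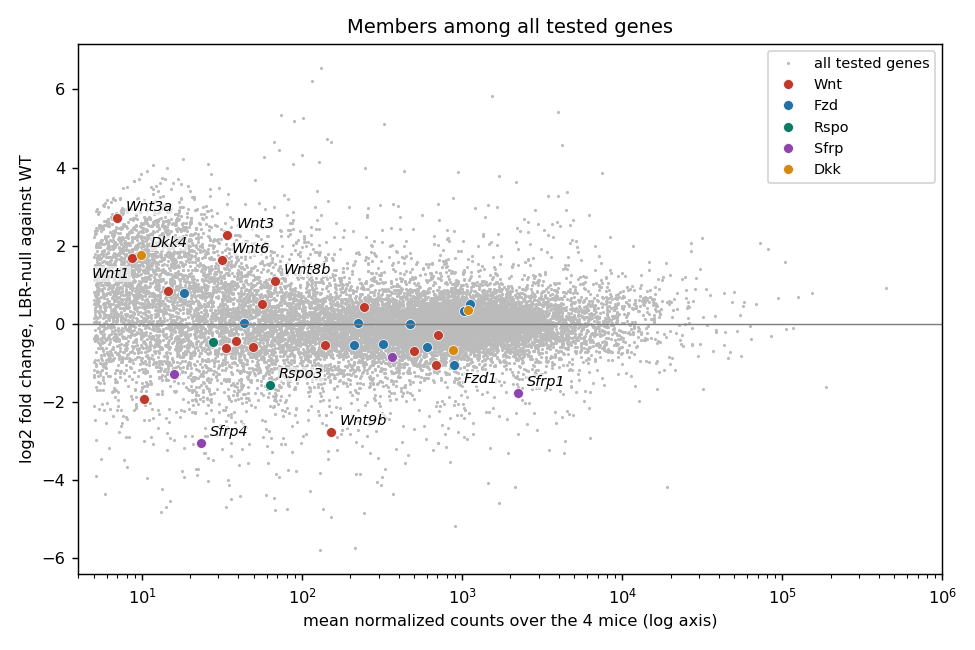
Log2 fold change of each tested gene (vertical axis, LBR-null against WT, on log2(normalized counts + 1)) over its mean normalized counts in the 4 mice (horizontal log axis). Grey points are the 17283 genes tested and coloured points the 36 tested members by family, with names for those at an unadjusted limma p under 0.05. Most of the higher members lie at low levels, while Sfrp1 and Fzd1 are lower at high levels.

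**Figure D2:**
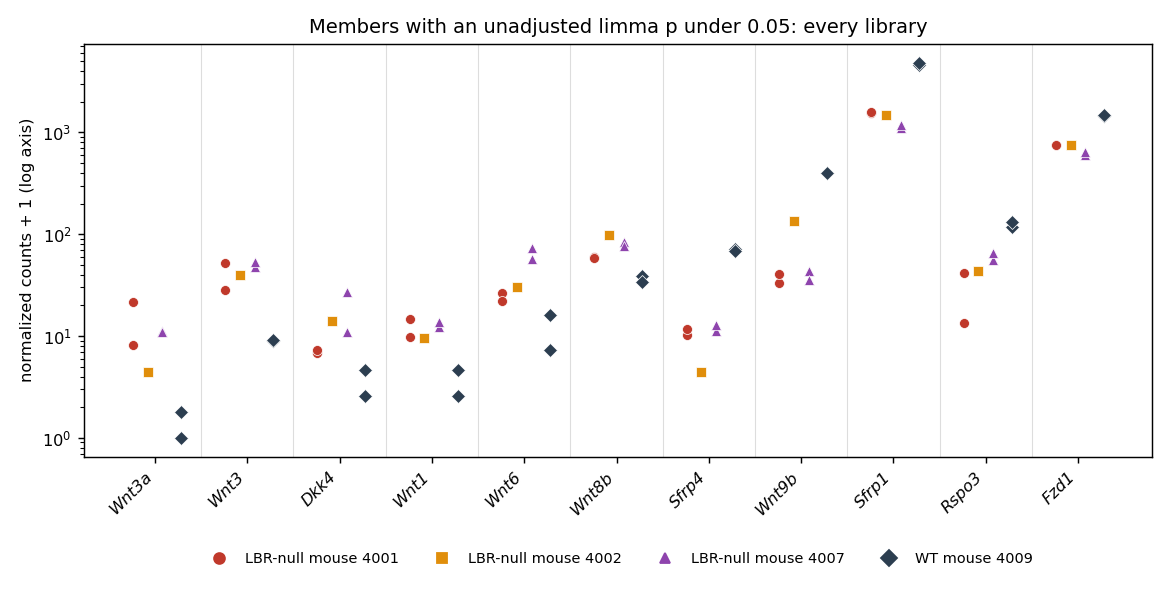
Normalized counts plus 1 on a log axis for the 11 members at an unadjusted limma p under 0.05, with 1 point per library and symbols for the 4 mice. For the 6 members on the left the symbols of all LBR-null libraries sit above those of WT, and for the 5 on the right they sit below.

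Among the ligands, Wnt3 had the smallest limma p of those that were higher. It activates β-catenin signalling and is required for the primitive streak of the embryo. Wnt3 was at 27.6 and 51.5 normalized counts in the libraries of mouse 4001, 38.7 in that of mouse 4002, and 46.6 and 52.9 in those of mouse 4007, against 7.87 and 8.14 in the WT libraries. All LBR-null libraries were far above the WT libraries, and the 3 mice lay close together. The mean was 42.6 ± 6.14 (SD, n = 3 mice) against 8.01, 5.32-fold higher, with a log2 fold change of 2.27 ± 0.45 (SE; limma, adjusted p = 0.103; DESeq2, adjusted p = 0.00776).

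Its neighbour Wnt9b went the other way. Wnt9b was at 32.2, 39.9, 132, 42.8 and 34.6 normalized counts in the LBR-null libraries, in the order 4001 (both), 4002 and 4007 (both), and at 395 in each of the WT libraries. Both WT libraries were far above all LBR-null libraries, and mouse 4002 lay between the other LBR-null mice and WT. The mean was 69.1 ± 54.9 (SD, n = 3 mice) against 395, 5.72-fold lower, with a log2 fold change of -2.77 ± 0.76 (SE; limma, adjusted p = 0.133; DESeq2, adjusted p = 0.0143), and without mouse 4002 it was -3.37. Wnt9b made up 11.4% of the summed Wnt level per kilobase in the WT mouse and 2.35% ± 1.02 (SD, n = 3) in the LBR-null mice.

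The genes lie side by side on chromosome 11 in mm9, Wnt9b from 103588678 to 103611135 on the minus strand and Wnt3 from 103635464 to 103679271 on the plus strand. Their 5′ ends face each other across 24.3 kb with no other annotated gene between them. The 250 bases upstream of each start are shown because these neighbours differ in opposite directions, with those of Wnt8b, a higher member poor in CpG, and of Fzd1, a lower receptor. They are the RefSeq sequences of GRCm38.p6 for chr11:103773925-103774174 (plus strand), chr11:103749822-103750071 (minus strand), chr19:44493222-44493471 (plus strand) and chr5:4758217-4758466 (minus strand), written 5′ to 3′ on the strand of the gene with each CpG in capitals.
Wnt3: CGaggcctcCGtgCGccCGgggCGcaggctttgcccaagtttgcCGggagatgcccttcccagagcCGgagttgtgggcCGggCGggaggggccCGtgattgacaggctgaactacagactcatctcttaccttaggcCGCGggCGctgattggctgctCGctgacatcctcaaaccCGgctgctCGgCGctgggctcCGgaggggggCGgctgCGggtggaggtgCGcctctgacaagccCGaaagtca
Wnt9b: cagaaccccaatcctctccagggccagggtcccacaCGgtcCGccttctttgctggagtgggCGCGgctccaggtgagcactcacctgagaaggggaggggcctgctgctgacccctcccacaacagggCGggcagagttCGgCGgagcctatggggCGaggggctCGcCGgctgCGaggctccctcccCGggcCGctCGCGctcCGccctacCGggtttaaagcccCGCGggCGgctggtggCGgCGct
Wnt8b: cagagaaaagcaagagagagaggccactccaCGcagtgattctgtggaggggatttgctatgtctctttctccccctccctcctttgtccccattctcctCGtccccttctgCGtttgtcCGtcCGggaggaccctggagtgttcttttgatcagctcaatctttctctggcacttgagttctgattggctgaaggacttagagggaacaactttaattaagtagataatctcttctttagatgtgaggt
Fzd1: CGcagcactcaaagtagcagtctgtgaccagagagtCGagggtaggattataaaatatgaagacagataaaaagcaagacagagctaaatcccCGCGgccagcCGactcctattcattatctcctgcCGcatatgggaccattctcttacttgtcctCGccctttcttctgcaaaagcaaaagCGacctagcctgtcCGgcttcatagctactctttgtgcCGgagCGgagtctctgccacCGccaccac
The stretches of Wnt3 and Wnt9b each hold 22 CpG, so the neighbours with opposite differences are alike in this respect, while that of Fzd1 holds 12 and that of Wnt8b holds 5.

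A CpG-rich start was common among the members. RefSeq promoters, 250 bases before to 50 after a start, were matched for 27 of the 41 members. With a GC content of at least 50% and an observed over expected CpG ratio above 0.6 over these 300 bases, 20 of the 24 tested members with a promoter were CpG-rich (83.3%), against 61.8% of the 12862 tested genes with one. A gene with more than 1 promoter was classed by the promoter with the highest ratio. The tested members below these limits were Dkk2, Wnt10b, Wnt16 and Wnt8b. CpG-rich starts were found for Wnt3a, Wnt3, Wnt1 and Wnt6, which were higher, and for Wnt9b and Fzd1, which were lower, while Wnt8b was higher without one. No promoter was matched for Dkk4, which was higher, or for Sfrp1, Sfrp4 and Rspo3, which were lower. The letters CTTTGAT or CTTTGAA, a core recognised by the TCF and LEF factors that bind β-catenin, stood on either strand of 3 of 30 member promoters (10%), against 8.65% of all 32851 promoters of the table.

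The other 3 pairs of neighbouring Wnt genes in mm9 were Wnt6 with Wnt10a on chromosome 1 (6.20 kb apart, same strand), Wnt3a with Wnt9a on chromosome 11 (16.2 kb, divergent) and Wnt10b with Wnt1 on chromosome 15 (11.7 kb, divergent). That each of the 4 pairs holds 1 member that was higher at an unadjusted limma p under 0.05 was noticed after the values were seen. Beside Wnt6 at a log2 fold change of 1.64, Wnt10a was at -0.45 ± 0.59 (SE). Beside Wnt3a at 2.70, Wnt9a was at 0.52 ± 0.38, and beside Wnt1 at 1.68, Wnt10b was at 0.84 ± 0.76. The difference within a pair was not tested.

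**Figure D3:**
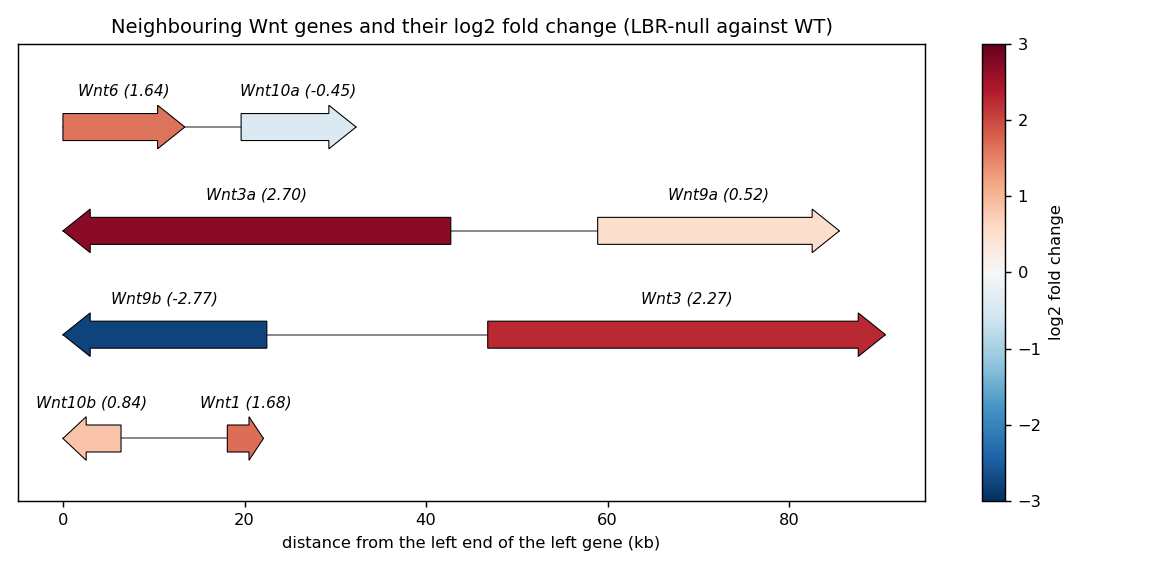
The 4 pairs of neighbouring Wnt genes in mm9, drawn to scale in kb from the left end of the left gene, with arrows in the direction of transcription. Colour and the number in brackets give the log2 fold change (LBR-null against WT), which has opposite signs for Wnt9b (-2.77) and Wnt3 (2.27).

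Wnt3a, Wnt1 and Wnt6 were low in all kidneys. Wnt3a, a β-catenin activating ligand of early development, was at 20.7, 7.10, 3.44, 10.2 and 10.03 normalized counts in the LBR-null libraries (order as for Wnt9b) and at 0.787 and 0 in the WT libraries. The WT libraries held 1 read in sum and the LBR-null libraries 52, a ratio per depth of 22.9 with a 95% counting interval of 3.93 to 920, so the groups did not overlap but the size of the difference is poorly fixed. The log2 fold change was 2.70 ± 0.84 (SE; limma, adjusted p = 0.164), and DESeq2 gave no adjusted p.

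Wnt1, the founding member of the family and known for midbrain development, was at 13.8, 8.87, 8.60, 11.2 and 12.8 normalized counts against 1.57 and 3.62, from 58 reads against 6. Its LBR-null mice were close to each other at 10.6 ± 1.79 (SD, n = 3 mice) against 2.597, with a log2 fold change of 1.68 ± 0.57 (SE; limma, adjusted p = 0.189). Wnt6, which is expressed in ureteric epithelium in development, was at 25.3, 21.3, 29.2, 71.7 and 55.6 normalized counts against 15.0 and 6.33. Mouse 4007 was the highest, and the lowest LBR-null library lay not far above the higher WT library. Its log2 fold change was 1.64 ± 0.65 (SE; limma, adjusted p = 0.249), with 2.30 without WT library 4009-1 and 1.18 without 4009-2. Wnt8b, a ligand of the developing forebrain, was at 58.6, 57.7, 98.0, 82.0 and 75.7 normalized counts against 37.8 and 32.6. All LBR-null libraries were above WT, with mouse 4002 the highest, and the log2 fold change was 1.10 ± 0.44 (SE; limma, adjusted p = 0.253).

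The ligands with the most transcript per kilobase of exon in the WT mouse were Wnt7b, Wnt4 and Wnt5a, at 174, 157 and 140 normalized counts per kilobase. On average over the LBR-null mice they were at 156, 106 and 70.9, with Wnt11 at 72.2. Wnt7b was at 372, 435, 1120, 505 and 578 normalized counts in the LBR-null libraries and at 799 and 736 in the WT libraries. Mice 4001 and 4007 were below WT and mouse 4002 above it, so the groups overlapped, and the log2 fold change was -0.30 ± 0.54 (SE; limma, adjusted p = 0.812). A lincRNA, AU022754, lies on the opposite strand of Wnt7b. Wnt4 had the same order of mice, with 213 to 387 in mice 4001 and 4007, 697 in mouse 4002, and 691 and 628 in WT (log2 fold change -0.69 ± 0.53).

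Wnt5a, the main ligand of signalling without β-catenin, was at 355, 396, 828, 430 and 489 normalized counts against 1103 and 1095. All LBR-null libraries were lower, mouse 4002 the least, and the mean was 1.98-fold lower (554 ± 241, SD, n = 3 mice, against 1099). The log2 fold change was -1.07 ± 0.45 (SE; limma, adjusted p = 0.272). The annotation places a lincRNA, Gm2670, on the opposite strand of Wnt5a, and the sources used here do not say whether the counting used strand. Its relative Wnt5b was at 150, 113, 118, 118 and 131 against 162 and 205 normalized counts, lower in every LBR-null library by a small margin, with a log2 fold change of -0.56 ± 0.32 (SE; limma, adjusted p = 0.398). Wnt5b overlaps Fbxl14 in the annotation.

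Wnt16 was at 20.7, 27.5, 35.3, 25.1 and 32.8 normalized counts against 47.2 and 43.4. Wnt2b was at 34.4, 43.5, 35.3, 58.7 and 56.5 against 64.6 and 66.9. Both were lower in every LBR-null library, with log2 fold changes of -0.62 ± 0.46 and -0.60 ± 0.46 (SE; limma, adjusted p = 0.512 and 0.526). Wnt2, a ligand of lung and placenta development, was split between the LBR-null mice. It was at 14.9 and 31.9 normalized counts in mouse 4001, 0.860 in mouse 4002, 0.931 and 0.911 in mouse 4007, and 10.2 and 21.7 in the WT libraries. Mice 4002 and 4007 held 1 read per library, while the libraries of mouse 4001 lay above the lower WT library, and the log2 fold change of -1.94 ± 1.501 (SE; limma, adjusted p = 0.533) has the largest error of any tested member, and leaving out 1 mouse or library moved it between -3.17 and -1.31. It was -0.79 with edgeR and -0.84 with DESeq2. Wnt11, which overlaps a pseudogene (Gm8398), was at 154 to 215 normalized counts in mice 4001 and 4007, 409 in mouse 4002, and 199 and 165 in WT. Its groups overlapped, as did those of Wnt9a, Wnt10a and Wnt10b.

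**Figure D4:**
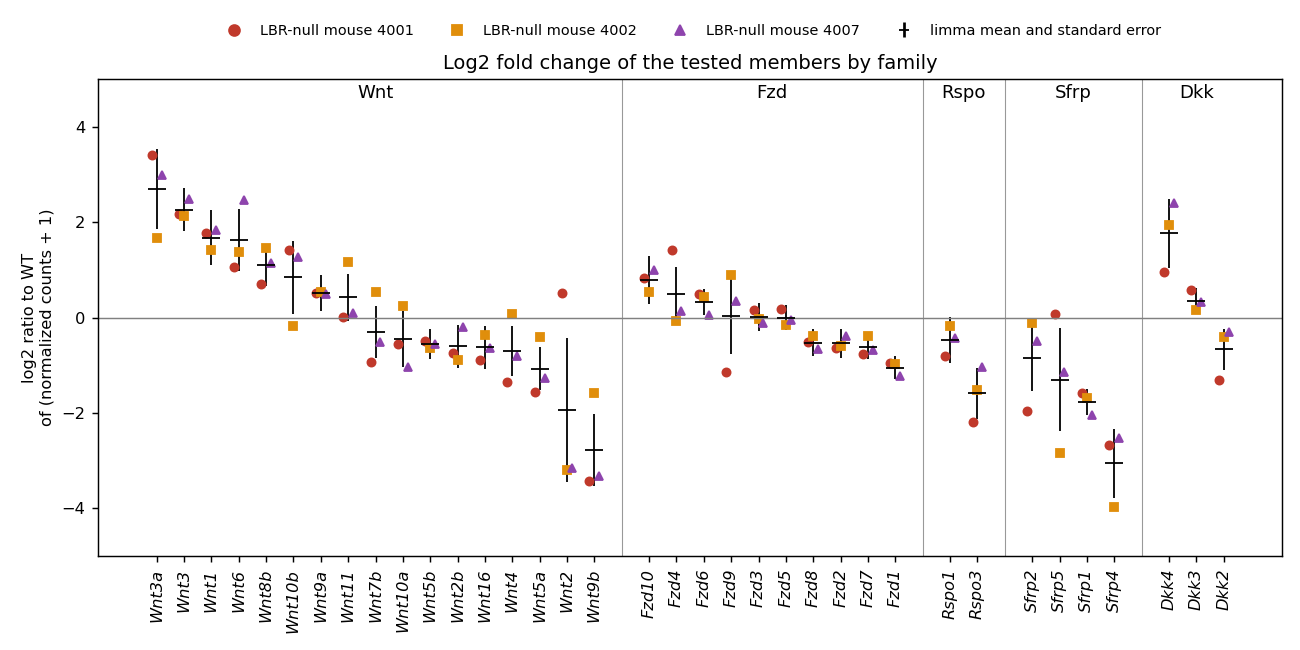
Log2 ratio to the WT mouse, on normalized counts plus 1, of each LBR-null mouse (coloured symbols) for the 36 tested members by family, with the limma mean and standard error in black. Wnt genes spread from 2.70 to -2.77, Frizzled genes from 0.79 to -1.05, and all 4 Sfrp genes have means below 0.

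Of the 10 Frizzled receptors, only Fzd1 passed an unadjusted limma p under 0.05, and it was lower, a share near the 8.05% of all genes tested. Fzd1 was at 752, 748, 745, 603 and 639 normalized counts in the LBR-null libraries against 1429 and 1476 in the WT libraries. Every LBR-null library held about the same level, well below both WT libraries, and the mean was 2.06-fold lower (705 ± 73.4, SD, n = 3 mice, against 1453). The log2 fold change was -1.05 ± 0.25 (SE; limma, adjusted p = 0.115; DESeq2, adjusted p = 0.0163). Fzd1 had the most transcript per kilobase of the family in the WT mouse, 332 normalized counts per kilobase, and 161 in the LBR-null mice, where Fzd4 (335) and Fzd6 (266) were above it. Its share of the summed Frizzled level was 26.3% in WT and 14.1% ± 1.89 (SD, n = 3) in LBR-null kidneys.

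Fzd4, a receptor for Wnt ligands and for Norrin in blood vessels, was at 1569 and 2602 normalized counts in mouse 4001, 751 in mouse 4002, 844 and 885 in mouse 4007, and 760 and 808 in WT. Mouse 4001 was high and the others were near WT, so the groups overlapped, and the log2 fold change was 0.50 ± 0.56 (SE; limma, adjusted p = 0.685). Without mouse 4001 it was 0.04, and without mouse 4002 it was 0.78. Fzd7 was at 464, 496, 622, 522 and 488 normalized counts against 827 and 791. Fzd8 was at 287, 292, 314, 280 and 239 against 428 and 395. Fzd2 was at 156, 195, 180, 201 and 220 against 276 and 271. All 3 were lower in every LBR-null library with little spread between mice, at log2 fold changes of -0.60 ± 0.27, -0.52 ± 0.28 and -0.54 ± 0.30 (SE; limma, adjusted p = 0.293, 0.368 and 0.390).

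Fzd10 was the receptor with every LBR-null library above WT, at 17.2, 24.8, 17.2, 22.4 and 25.5 normalized counts against 16.5 and 6.33, with the lowest LBR-null libraries next to the higher WT library (log2 fold change 0.79 ± 0.50, SE; limma, adjusted p = 0.443). Without WT library 4009-1 it was 1.55, and without 4009-2 it was 0.30. A pseudogene of the same name overlaps it. Fzd3, Fzd5, Fzd6 and Fzd9 overlapped between the groups, at log2 fold changes between 0.00 for Fzd5 and 0.33 for Fzd6. The summed level of the 10 receptors per kilobase was 1158 ± 231 (SD, n = 3 mice) against 1260 in WT, a difference within the spread between the LBR-null mice.

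Rspo3, which amplifies Wnt signals through Lgr4 to Lgr6, was at 40.2, 12.4, 42.1, 54.9 and 63.8 normalized counts in the LBR-null libraries against 116.5 and 129.4 in WT. Both WT libraries were above every LBR-null library, and the libraries of mouse 4001 differed from each other more than 2-fold. The mean was 2.89-fold lower (42.6 ± 16.5, SD, n = 3 mice, against 123), with a log2 fold change of -1.58 ± 0.53 (SE; limma, adjusted p = 0.189; DESeq2, adjusted p = 0.115). Rspo3 held most of the R-spondin transcript per kilobase in both genotypes, 51.4 in WT and 17.8 in LBR-null kidneys. Rspo1 overlapped between the groups at a log2 fold change of -0.47 ± 0.48 (SE). A processed transcript, Gm12930, lies on the opposite strand of Rspo1.

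All 4 Sfrp inhibitors had a negative log2 fold change, where the median of all genes tested was 0.01. Sfrp1 and Sfrp4 were lower at an unadjusted limma p under 0.05, as were 8.05% of all genes tested. Sfrp1, which binds Wnt ligands outside the cell and is the most abundant member per kilobase in the WT kidney (1080 normalized counts per kilobase), was at 1538 and 1600 normalized counts in mouse 4001, 1467 in mouse 4002, 1112 and 1171 in mouse 4007, and 4619 and 4822 in WT. The LBR-null libraries lay in a narrow band far below WT. The mean was 3.39-fold lower (1392 ± 223, SD, n = 3 mice, against 4720), with a log2 fold change of -1.77 ± 0.27 (SE; limma, adjusted p = 0.0897; DESeq2, adjusted p = 1.2e-05).

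Sfrp4, an inhibitor known in bone and fat, was at 9.19, 10.6, 3.44, 10.2 and 11.8 normalized counts against 70.1 and 66.9. The LBR-null libraries all lay far below both WT libraries, and the mean was 8.42-fold lower (8.13 ± 4.11, SD, n = 3 mice, against 68.5). Its log2 fold change of -3.06 ± 0.72 was the most negative of all tested members (SE; limma, adjusted p = 0.115; DESeq2, adjusted p = 0.00798). Sfrp2 was at 149, 110, 469, 376 and 347 normalized counts against 495 and 517. Its LBR-null libraries all lay under WT, though mouse 4002 was close to WT and mouse 4001 far below (log2 fold change -0.85 ± 0.69, SE; limma, adjusted p = 0.552). The log2 fold change was -0.30 without mouse 4001 and -1.22 without mouse 4002. A lincRNA, Gm16790, lies on the opposite strand of Sfrp2.

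Sfrp5 was at 24.1, 27.5, 2.58, 4.66 and 16.4 normalized counts against 24.4 in each WT library. Mouse 4001 was at the WT level and mice 4002 and 4007 were below it, so the groups overlapped, with a log2 fold change of -1.30 ± 1.07 (SE; limma, adjusted p = 0.564), which was -1.98 without mouse 4001 and -0.53 without mouse 4002. The summed Sfrp level per kilobase was 476 ± 69.0 (SD, n = 3 mice) against 1344 in WT, and it was below the WT sum in each LBR-null mouse (435, 556 and 437). Sfrp1 held 80.3% of this sum in WT and 67.5% ± 13.0 (SD, n = 3) in LBR-null kidneys.

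Of the 3 tested Dkk genes, Dkk4 passed an unadjusted limma p under 0.05 and was higher, as were 10.7% of all genes tested. In the range of Dkk4, a mean of 5 to 50 normalized counts, that share was 24.3%. Dkk4 was under 5 normalized counts in the WT mouse and passed the limit on low values only through the LBR-null mice. Dkk3, a divergent member of the family and the most abundant of it per kilobase in LBR-null kidneys (342, against 265 in WT), was at 1269, 1407, 993, 1156 and 1072 normalized counts against 912 and 869. Every LBR-null library was above WT by a small margin, with a log2 fold change of 0.36 ± 0.26 (SE; limma, adjusted p = 0.517). Dkk2, a blocker of Lrp5 and Lrp6, was at 574, 388, 898, 965 and 953 normalized counts against 1195 and 1170. The LBR-null libraries all lay under WT, most of all those of mouse 4001 (log2 fold change -0.66 ± 0.42, SE; limma, adjusted p = 0.449). The log2 fold change was -0.35 without mouse 4001 and -0.85 without mouse 4007. Dkk4, a blocker of the same co-receptors, was at 5.74, 6.21, 12.9, 26.1 and 10.03 normalized counts against 1.57 and 3.62, from 66 reads against 6. The groups did not overlap, and the log2 fold change was 1.77 ± 0.73 (SE; limma, adjusted p = 0.263). The summed Dkk level per kilobase was 564 ± 38.3 (SD, n = 3 mice) against 588 in WT.

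The 3 LBR-null mice did not lie equally far from WT. Over the 36 tested members, the median absolute log2 ratio to WT was 0.91 for mouse 4001, 0.58 for 4002 and 0.74 for 4007. Mouse 4002 was the nearest to WT for 17 members and mouse 4001 the farthest for 19. The median absolute log2 difference between both libraries of a mouse was 0.32 for 4001, 0.15 for 4007 and 0.12 for WT. In mouse 4002, which like the WT mouse had little Xist and much Ddx3y, the log2 ratios were 2.14 for Wnt3, 1.67 for Wnt3a, 1.42 for Wnt1, 1.38 for Wnt6, 1.45 for Wnt8b and 1.95 for Dkk4. The ratios of the lower members in mouse 4002 were -1.57 for Wnt9b, -0.96 for Fzd1, -1.52 for Rspo3, -1.69 for Sfrp1 and -3.97 for Sfrp4. Mouse 4002 also entered the fit that named these members, so their direction in it is a description.

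Other genes of the pathway were taken from fixed lists. limma and edgeR called 0 of them and DESeq2 called Trabd2b and Myc, and the counts at an unadjusted limma p under 0.05 are given for each list, with the all-gene shares of 10.7% higher and 8.05% lower as background. Genes with all LBR-null libraries on 1 side of WT are named as values, since 25.5% of all genes lay above and 25.7% below. Of 13 co-receptors and regulators of receptor turnover, none passed an unadjusted limma p under 0.05, and 4 were above WT in every LBR-null library, namely Lrp6, Ryk, Lgr4 and Znrf3, a share near the 25.5% of all genes (median log2 fold change of the list 0.16). Lgr4, a receptor for R-spondins, had the largest difference of them at 1.15 ± 0.49 (SE; limma, adjusted p = 0.273). Of 6 genes for ligand release and processing, Trabd2b, a protease that cleaves Wnt ligands, passed and was lower, at 1120 ± 267 normalized counts (SD, n = 3 mice) against 3084 (log2 fold change -1.49 ± 0.31, SE; limma, adjusted p = 0.107; DESeq2, adjusted p = 0.0035). Wls, which carries Wnt proteins to the surface, and Gpc4, a proteoglycan, were also below WT in every LBR-null library, at -0.32 and -0.61. Of 7 tested genes among 8 other inhibitors, none passed, with Frzb (0.55) and Cer1 (1.38) above WT and Igfbp4 (-0.57) below in every LBR-null library. Cer1 was at 3.44 normalized counts in the WT mouse and reached the limit on low values only through the LBR-null mice.

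Of 25 genes of the cytoplasmic and nuclear steps, Tle1, a co-repressor, was higher (log2 fold change 0.66 ± 0.26, SE) and Btrc, which marks β-catenin for destruction, lower (-0.65 ± 0.25, SE) at an unadjusted limma p under 0.05, and the median of the list was -0.04. Axin1 was also above WT in every LBR-null library (0.21), and Gsk3b, Bcl9l, Pygo2 and Cby1 were below (-0.14 to -0.50). Of 16 β-catenin target genes, Myc, a growth regulator that many other signals also control, was higher at 325 ± 61.1 normalized counts (SD, n = 3 mice) against 142, with a log2 fold change of 1.17 ± 0.32 (SE; limma, adjusted p = 0.136; DESeq2, adjusted p = 0.0352). Nkd1, a feedback inhibitor, was lower at 141 ± 70.4 (SD, n = 3 mice) against 372, with a log2 fold change of -1.54 ± 0.63 (SE; limma, adjusted p = 0.258). Nkd2 (0.24) and Znrf3 (0.48) were above WT in every LBR-null library, and Sp5 (-0.55) and Ccnd1 (-1.32) were below. The targets thus did not share a direction, and their median was -0.06. Of 12 planar polarity genes, Celsr2 was lower (-0.94 ± 0.34, SE), with Vangl1, Celsr1 and Daam2 below WT in every LBR-null library (-0.39 to -0.85) and Vangl2 above (0.79).

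Markers of several kidney and neighbouring cell types differed between the same libraries. Of all genes tested, 8.05% were lower and 10.7% higher at an unadjusted limma p under 0.05, and 25.7% lay below WT in every LBR-null library. The defining markers of the kidney were present in all libraries, with no marker of any list at 0 throughout. Of 8 fibroblast and stroma markers, Col1a1 and Col1a2 were lower at an unadjusted limma p under 0.05, and the sum of the list was 17107 to 30530 normalized counts in the LBR-null libraries against 40824 to 41635 in WT. Pdgfrb and Col3a1 also lay below WT in every LBR-null library, while Dcn, Pdgfra, Meg3 and Lum overlapped between the groups, at log2 fold changes of 0.86, 0.27, 0.17 and -0.34, so the markers of this list did not share a direction. Of 6 smooth muscle and pericyte markers, Myh11 and Tagln were lower (sums 5283 to 7738 against 11675 to 11808). Acta2 also lay below WT in every LBR-null library (-1.01), while Rgs5, Cspg4 and Notch3 overlapped between the groups (-0.09, -0.08 and -0.24). Of 5 urothelium markers, Upk2 and Krt5 were lower (sums 349.6 to 707 against 1097 to 1138), and of 4 adipocyte markers Adipoq, Plin1 and Cidec (sums 29.2 to 114 against 420 to 455). All 5 urothelium markers and these 3 adipocyte markers lay below WT in every LBR-null library. All 4 podocyte markers (sums 7410 to 15350 against 19153 to 19168) and all 5 macrophage markers (sums 1847 to 2178 against 2964 to 2991, with C1qb passing) were below WT in every LBR-null library. The part of these cell types in the lower members, such as Sfrp1, Sfrp4, Wnt5a and Rspo3, was not tested.

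The 5 collecting duct principal cell markers, cells that descend from the epithelium that makes Wnt9b and Wnt7b, overlapped between the groups (sums 28486 to 53312 against 33542 to 33707). Of 4 tested nephron progenitor markers, Crym was lower and Cited1 below WT in every LBR-null library (sums 231 to 389 against 668 to 752). In this list 2 tested markers overlapped between the groups. Its log2 fold changes ran from -1.59 to 0.26, so the markers did not share a direction. Of 4 proximal tubule markers, Lrp2, Slc34a1 and Cubn were lower and Slc5a12 higher (sums 40419 to 46687 against 96707 to 98597). All 5 neutrophil markers found were higher (sums 365 to 2388 against 58.3 to 64.2), of which Retnlg, Camp and Ngp were under 5 normalized counts in the WT mouse and passed the limit on low values only through the LBR-null mice. Serpina1a of 4 liver markers (sums 8963 to 24598 against 5917 to 6111) and Hsd3b1 of 2 tested adrenal cortex markers (sums 154 to 221 against 117.3 to 130.3) were higher too, and Hsd3b1 likewise passed that limit only through the LBR-null mice. The loop of Henle, intercalated cell, endothelium and skeletal muscle lists held no marker past an unadjusted limma p under 0.05. Whether these cells bear on Wnt3, Wnt3a, Wnt1, Wnt6, Wnt8b or Dkk4 was not tested.

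**Figure D5:**
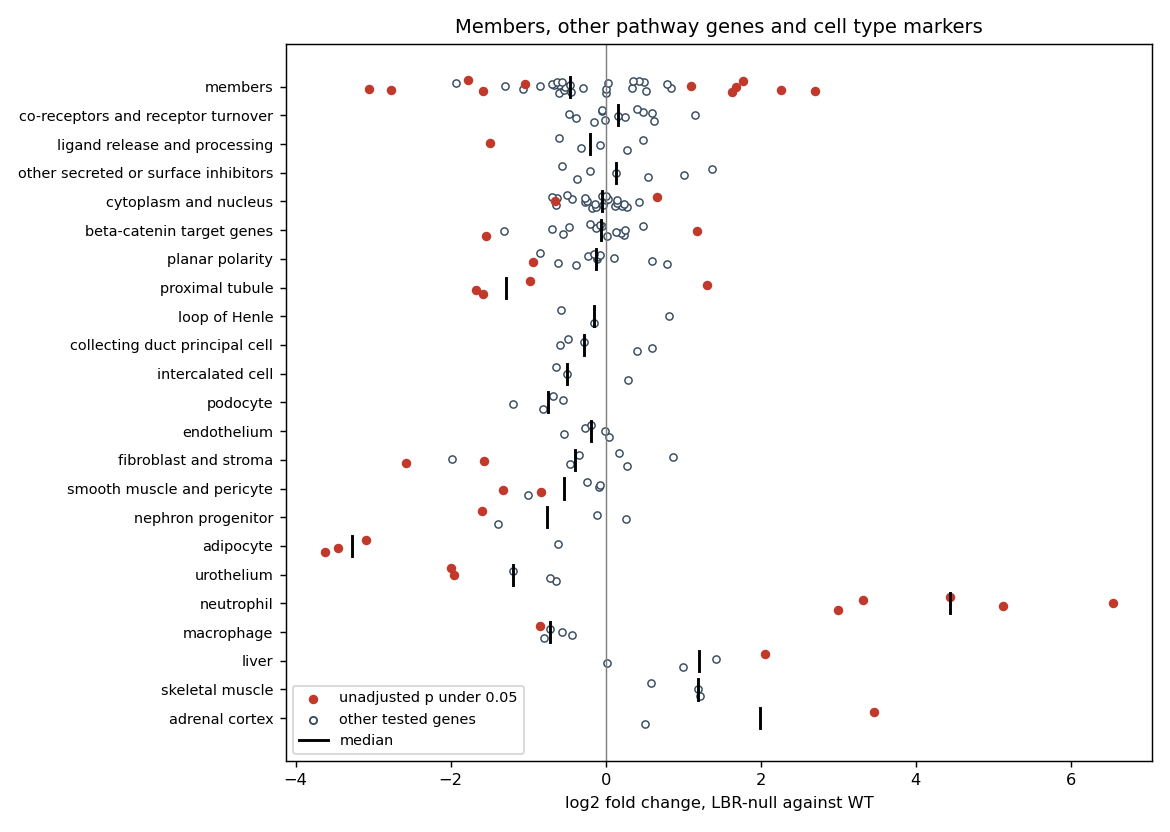
Log2 fold change (LBR-null against WT) of the 36 tested members, of other genes of the pathway and of cell type markers, with 1 point per tested gene, red for an unadjusted limma p under 0.05, and a black bar at the median of each list. The members scatter on both sides of 0 with a median of -0.46, the β-catenin target genes lie around 0, adipocyte markers have a median of -3.27 and neutrophil markers one of 4.44.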

How the data were processed

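Kidney RNA-seq libraries (7 from 4 mice) were analysed. Per the labels and the study's methods, the authors used STAR 2.6.0 to map paired-end reads to mm9. They deposited a signal for each gene row, the read count over the DESeq2 1.25.1 size factor, and the lines of 2 symbols listed more than once were treated as separate genes. The counting program, annotation and use of strand are not given in the sources used here. All deposited values (100%) were whole multiples of 1 read within 0.01 read, so reads were recovered by division.

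Libraries were averaged within a mouse. The 17283 genes whose mean reached 5 were fitted with limma 3.58.1 (R 4.3.3, trended eBayes) on log2(normalized counts + 1), a scale that understates changes of low genes, and p-values were adjusted by Benjamini-Hochberg. The fit has 2 residual degrees of freedom and assumes that the lone WT mouse varies as the LBR-null mice do. The p-values rest on the spread between the LBR-null mice, drawn by eBayes toward a trend over all genes. The lone WT mouse adds no spread of its own. edgeR 4.0.16 and DESeq2 1.42.0 were run on recovered reads summed per mouse, and the script was tested on simulated data. Counting intervals cover counting error only. Gene positions and exon lengths are those of GENCODE M1 (mm9).

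The members and lists were chosen with earlier results of these data known. Members were described in full when all LBR-null libraries lay on 1 side of WT, at an unadjusted p under 0.05, at an absolute log2 fold change of at least 1, or as the most abundant of a family per kilobase. Genes of the pathway lists were named under the first 2 of these criteria, and cell type markers after their values were seen.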

Additional observations from a re-analysis of the deposited data

Results flagged for a closer look

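In 4 of the 36 groups of 5 LBR-null libraries, library 4002-1 lay far from the other 4 by Dixon's criterion, which chance meets in about 1 in 20 groups of independent values. These libraries are not independent, since 2 come from mouse 4001 and 2 from mouse 4007, so the lone library of mouse 4002 can stand apart more often than that. All 4 were Wnt ligands. Wnt9b was at 132 normalized counts in library 4002-1, against 32.2 to 42.8 in the other LBR-null libraries and 395 in WT. Wnt5a was at 828, against 355 to 489 and 1095 to 1103. Wnt7b was at 1120, against 372 to 578 and 736 to 799. Wnt11 was at 409, against 154 to 215 and 165 to 199. Mouse 4002 gave 1 library, so a difference between animals and one between library preparations cannot be told apart here.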

How the results depend on the processing

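No member was called under 11 of the 14 alternatives, among them both other pseudocounts, both other filters, TMM scaling and the edgeR test. Shares over all genes were taken for the main fit, edgeR and DESeq2 only. Calls and counts gained when 1 mouse or library was left out therefore cannot be told from a rise over all genes. Leaving out 1 LBR-null mouse or 1 WT library gave 0 to 4 calls: 4 without mouse 4001 (Wnt3, Sfrp4, Fzd1 and Sfrp1) and 4 without mouse 4002 (Wnt3a, Wnt9b, Sfrp4 and Sfrp1). DESeq2 gave 5. The 6 members higher at an unadjusted p under 0.05 became 3 with a pseudocount of 5, 3 with no filter, 2 with a mean of at least 20, 3 with equal total reads, and 2 to 5 when 1 mouse or library was left out, with 2 (Wnt3a and Wnt3) without mouse 4007. The 5 lower members became 4 with no filter, where Rspo3 was lost, and 5 to 9 when 1 mouse or library was left out, with 9 without mouse 4001, where Fzd7, Wnt5a, Sfrp5 and Wnt2 were added. Wnt9b, Sfrp4, Fzd1 and Sfrp1 were among the lower members, and Wnt3 among the higher, in each alternative. The 8 members above WT became 4 at a mean of at least 20. The median of -0.46 was -0.22 without library 4009-1, in a range of -0.51 to -0.22 when 1 mouse or library was left out, and its lowest value was -0.52 at a mean of at least 20. Wnt7b turned from -0.30 to 0.020 without mouse 4001, in a range of -0.72 to 0.020. Of 357 log2 fold changes of 26 members under 14 alternatives, 343 kept direction and side of the threshold, 13 gained a call, and 1 reversed; the cause was not tested. No paired analysis was possible because the replicate numbers in the labels number the libraries of 1 mouse. Depth limits Wnt3a, Wnt1 and Dkk4, with 1 to 6 reads in WT.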
